A study of Mus musculus with 9 samples.

Results

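The clustered protocadherins are 58 mouse genes that lie side by side on chromosome 18 in an alpha, a beta and a gamma cluster. The genes described here were chosen by chromosome and by symbol, as every gene on chromosome 18 whose symbol starts with Pcdha, Pcdhb or Pcdhg, and they make up 58 of the 55401 genes in the count table. There were 14 alpha, 22 beta and 22 gamma genes, and the symbol Pcdha11 stood for 2 of the alpha gene IDs. No count entered that choice, but the family was proposed with earlier results of these same counts known, so the differences between groups below are given as a description.

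The RNA came from XEN cells, which are stem cells of the mouse extra-embryonic endoderm, of 1 female line with a molossinus by musculus background. DeltXp cells carried a paternal deletion upstream of Xist (2 libraries), DeltXp_DeltXm cells carried the deletion on both X chromosomes (2 libraries), and WT_EV cells were wild type (3 libraries). The 2 further wild-type clones of the series (WT_clone) come in a separate table, in which none of the 58 genes was present as held here, so they were not analysed here. Every title of a DeltXp library begins with D1 and every title of a DeltXp_DeltXm library with D3. Where these are the names of single lines, a difference between genotypes and one between lines cannot be told apart. The titles of the 2 DeltXp libraries each carry 2 numbers that disagree, and the one after "rep" is used here as the replicate. The labels do not say what EV stands for, or whether each WT_EV library is a culture of its own, so the tests measure only the spread between these libraries.

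Protocadherins of these clusters are cell-surface adhesion proteins of the cadherin superfamily that bind their own kind on a neighbouring cell. They are best known from neurons, where each cell switches on its own small combination of them and uses it to tell its own branches from those of other cells. In the alpha and gamma clusters each gene has its own large first exon, with its own promoter, which is joined to constant exons shared by the whole cluster, while each beta gene is a single exon. CTCF and cohesin bring the promoters to distant enhancers, and DNA methylation together with SMCHD1, a protein also needed to silence genes on the inactive X chromosome, keeps unchosen promoters off.

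Library totals ran between 14352719 and 29335803 counts. Levels are CPM, the count relative to the library total, after TMM scaling, a scaling that sets the bulk of genes in the libraries to the same level. Differences are log2 changes from the edgeR quasi-likelihood fit over all 15331 genes that passed a filter on low counts. A gene is counted as called when its p, adjusted by Benjamini-Hochberg over those genes, was under 0.05. Xist itself had between 15447 and 17314 CPM in DeltXp libraries, between 5460 and 8951 CPM in DeltXp_DeltXm libraries and between 689 and 1562 CPM in WT_EV libraries. Where the deleted segment starts and ends is not stated, so these levels check no label. Of 10 listed RNAs that carry no poly(A) tail, such as replication-dependent histone mRNAs, the summed level was between 0.307 and 0.541 CPM in DeltXp, between 0.0829 and 0.393 CPM in DeltXp_DeltXm and between 9401 and 16310 CPM in WT_EV libraries. All 10 listed markers of XEN cells and primitive endoderm had counts, and their summed level was between 7425 and 17109 CPM in DeltXp, between 11224 and 14152 CPM in DeltXp_DeltXm and between 21317 and 28882 CPM in WT_EV libraries. Against WT_EV, 2 of them were called higher and 3 lower in DeltXp, and 2 higher and 4 lower in DeltXp_DeltXm. The shares over all genes were 32.2% and 40.1%, and 30.9% and 36.0%. With the offsets for GC content and length described below, 5 were called higher and 0 lower in DeltXp, and 4 and 0 in DeltXp_DeltXm. The shares over all genes were then 25.5% and 24.9%, and 22.6% and 20.4%. Markers of another cell type were low: the 10 listed fibroblast markers summed to between 0.502 and 1.69 CPM in DeltXp, between 0.581 and 1.53 CPM in DeltXp_DeltXm and between 0.591 and 1.14 CPM in WT_EV libraries, with Col1a2, Col3a1, Thy1, Twist1 and Lum at 0 in all 7.

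The 58 genes had 12971 counts in the 7 libraries together. On GRCm38 the alpha cluster spans chromosome 18 from 36930184 to 37187661, the beta cluster from 37264938 to 37524479 and the gamma cluster from 37661793 to 37841873, all on the plus strand. By the exons deposited with the counts, 38 of the 58 genes share exon bases with another gene on their strand. All alpha and gamma genes do so through constant exons, Pcdhb21 and Pcdhb22 where the end of one overlaps the start of the next. Pcdhga7 had 0 counts in both DeltXp_DeltXm libraries although its constant exons are also those of Pcdhgc3, which had 180 and 171 counts there. Reads from the shared exons were thus not credited to every gene that holds them, and a gamma count is read here as a count of the gene's own first exon. The counting settings for shared exons and for antisense genes are not stated. The antisense gene Gm26672, which covers Pcdhga10, had at most 9 counts in a library.

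Along the locus the counts began abruptly within the beta cluster. The alpha cluster had 1 count in all, for Pcdha9 in DeltXp replicate 1, and the other 13 alpha genes, Pcdhac1 and Pcdhac2 among them, had 0 counts in all 7 libraries. Counts of 0 over a whole group allow a level of up to 0.0605 CPM in DeltXp_DeltXm and 0.0516 CPM in WT_EV cells, taking 3 counts over the group as the limit and covering counting error only. Pcdhb1 also had no count, and the 13 genes from Pcdhb1 to Pcdhb13 had 73 counts together, at most 9 for 1 gene in 1 library. From Pcdhb14 on, every beta gene had counts in every library, and the 9 genes from Pcdhb14 to Pcdhb22 held 5333 of the 5406 beta counts. All 22 gamma genes had counts in some library. The 31 genes that passed the filter on low counts were these 9 beta and 22 gamma genes; no alpha gene passed, and 27 genes in all were not tested. A gene can pass that filter through its high group alone, so the counts of called genes below describe the 31 and not the family.

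**Figure D1:**
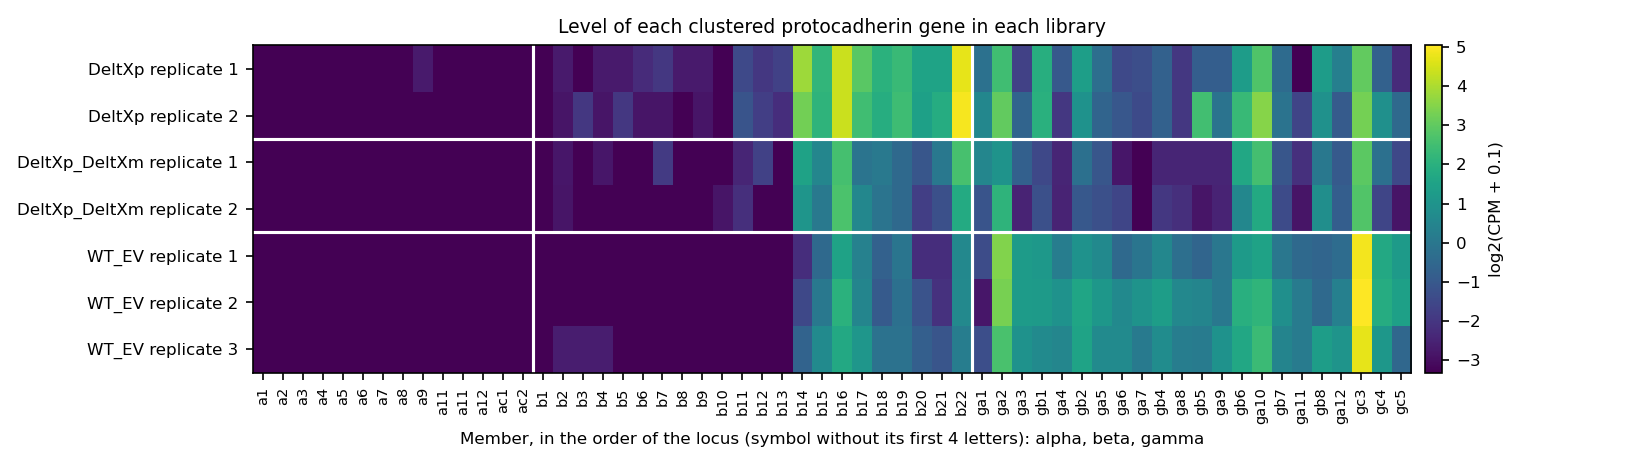
The level of each of the 58 genes, as log2(CPM + 0.1), with genes across in the order of the locus and the 7 libraries down; white lines part the clusters and the groups. The alpha genes and Pcdhb1 to Pcdhb13 sit at or near the floor in all libraries, Pcdhb14 to Pcdhb22 are brightest in DeltXp, and Pcdhgc3 is brightest in WT_EV.

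The low proximal beta genes were not at the same floor in every group. Pcdhb1 to Pcdhb13 summed to 1.12 and 1.16 CPM in DeltXp libraries, 0.539 and 0.196 CPM in DeltXp_DeltXm libraries and 0, 0 and 0.18 CPM in WT_EV libraries. Pcdhb11 had the most of these counts, with 5 and 9 in DeltXp, 2 and 3 in DeltXp_DeltXm and 0, 0 and 0 in WT_EV libraries. In DeltXp replicates 1 and 2 a count was seen for 10 of the 13 genes each, against 5 and 3 genes in DeltXp_DeltXm and 0, 0 and 3 genes in WT_EV libraries. These are 1 to 9 counts a gene in libraries of unequal depth and no test was made on them.

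Summed over a cluster, the beta genes were highest in DeltXp cells and the gamma genes in WT_EV cells. The beta sum was 88.3 and 86.6 CPM in DeltXp libraries, 19.99 and 16.1 CPM in DeltXp_DeltXm libraries, and 7.60, 9.53 and 10.9 CPM in WT_EV libraries. No 2 groups overlapped, and the log2 ratio of the group means was 3.23 for DeltXp over WT_EV, 0.95 for DeltXp_DeltXm over WT_EV and -2.28 for DeltXp_DeltXm over DeltXp. The gamma sum was 37.6 and 55.6 CPM in DeltXp libraries, 24.6 and 20.5 CPM in DeltXp_DeltXm libraries, and 67.6, 82.3 and 67.1 CPM in WT_EV libraries. Again the groups did not overlap, with log2 ratios of -0.64 for DeltXp over WT_EV, -1.68 for DeltXp_DeltXm over WT_EV and -1.04 for DeltXp_DeltXm over DeltXp. In bulk RNA, more cells that use a gene and more RNA per cell cannot be told apart. Genes of 1 cluster share a locus and a library, so they are not replicates and these sums carry no test.

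**Figure D2:**
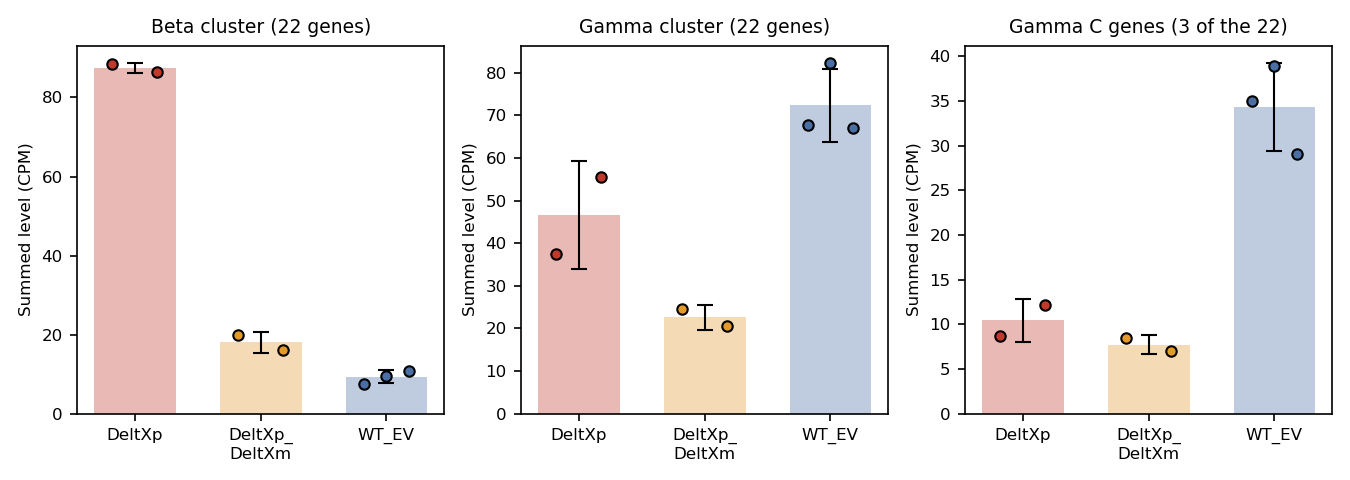
Summed level in CPM of the 22 beta genes, the 22 gamma genes and the 3 gamma C genes; points are libraries, bars group means and whiskers 1 SD (n = 2 DeltXp, 2 DeltXp_DeltXm, 3 WT_EV). The beta sum averages 87.5 CPM in DeltXp, 18.1 CPM in DeltXp_DeltXm and 9.35 CPM in WT_EV, while the gamma C genes average 10.4 CPM in DeltXp, 7.73 CPM in DeltXp_DeltXm and 34.3 CPM in WT_EV.

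The balance of the clusters within a library differed in the same way. Beta genes held 70.1% of the family's counts in DeltXp replicate 1 (95% Wilson interval 68.3 to 71.9%) and 60.9% in replicate 2 (59.3 to 62.5%). The share was 44.8% (41.8 to 47.8%) and 44.0% (40.9 to 47.2%) in the DeltXp_DeltXm libraries. In WT_EV libraries it was 10.1% (8.59 to 11.8%), 10.4% (9.17 to 11.7%) and 13.99% (12.2 to 16.0%). These intervals cover counting error only. The 2 DeltXp libraries differed from each other beyond counting error, by less than either differed from any library of another group.

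All comparisons with WT_EV carry a difference between the libraries that reaches far beyond this family. GC content and length of the gene explained 46.2% of the variance of the log2 changes over all genes in DeltXp against WT_EV and 44.9% in DeltXp_DeltXm against WT_EV, but 7.91% in DeltXp_DeltXm against DeltXp. Genes of low GC content were higher in the deletion libraries: the median log2 change of all tested genes in DeltXp against WT_EV was 1.62 at 42 to 44% GC and -1.95 at 52 to 54% GC. The clusters lie on opposite sides of this trend. Transcripts of the 9 tested beta genes have 39.1 to 48.3% GC and those of the 22 gamma genes 51.0 to 55.4%. Changes of the clustered genes against WT_EV are therefore also given from a second fit, with offsets that remove a smooth trend on GC content and length from each library. The median log2 change of all tested genes was -0.35 without and -0.02 with the offsets in DeltXp against WT_EV, -0.15 and 0.06 in DeltXp_DeltXm against WT_EV, and 0.02 and 0.01 in DeltXp_DeltXm against DeltXp. The RNAs without a poly(A) tail part the WT_EV libraries from the deletion libraries in the same way, so this library difference and the genotype cannot be told apart in the comparisons with WT_EV.

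**Figure D3:**
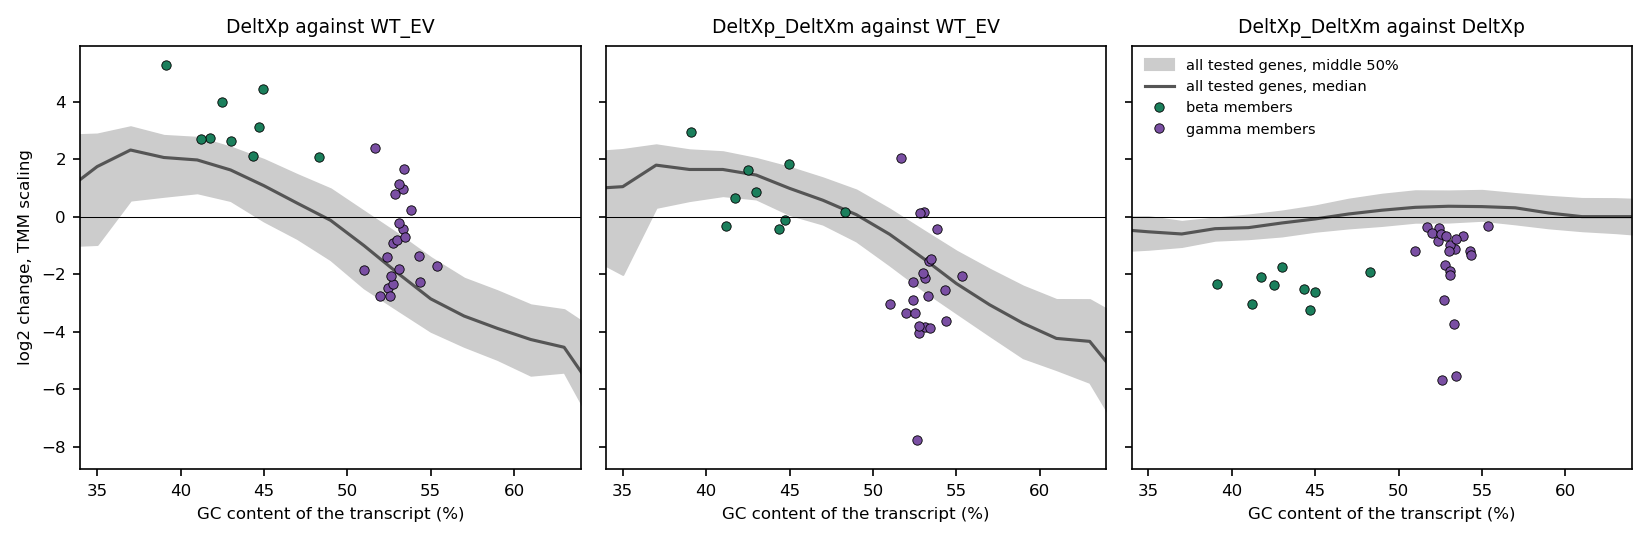
Log2 change of the 31 tested genes under TMM scaling against the GC content of the transcript (%), in the 3 comparisons; the grey line is the median and the band the middle 50% of all tested genes in bins of 2 percentage points with 20 genes or more. Against WT_EV the median of all genes goes down with GC content, with the beta genes at its low end and the gamma genes at its high end, whereas in DeltXp_DeltXm against DeltXp all 31 points lie below the median line.

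In DeltXp against WT_EV, every one of the 9 tested beta genes was higher. Pcdhb22, the last gene of the cluster and its most abundant member in DeltXp, had 26.2 and 30.6 CPM in DeltXp libraries, against 1.41, 1.43 and 1.08 CPM in WT_EV libraries, a log2 change of 4.43 ± 0.38 (SE) and of 3.11 ± 0.35 with the offsets. Pcdhb14, the first gene of the active stretch, had 14 and 9.54 CPM in DeltXp libraries, against 0.113, 0.253 and 0.54 CPM in WT_EV libraries, with log2 changes of 5.28 ± 0.60 and, with the offsets, 3.03 ± 0.52. Pcdhb16 had 20.8 and 20.4 CPM in DeltXp libraries, against 2.7, 3.97 and 3.24 CPM in WT_EV libraries, with log2 changes of 2.64 ± 0.33 and, with the offsets, 1.07 ± 0.29. For none of these did the libraries of the groups overlap, but the share of all genes without overlap was not counted. All 3 log2 changes were smaller with the offsets, and all 3 genes were called higher under both fits.

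Other beta genes followed at lower levels. Pcdhb21 had 2.76 and 3.55 CPM in DeltXp libraries, against 0.113, 0.127 and 0.36 CPM in WT_EV libraries (log2 change 3.99 ± 0.70, with the offsets 2.47 ± 0.68). Pcdhb17 had 7.36 and 5.44 CPM in DeltXp libraries, against 1.18, 1.31 and 1.98 CPM in WT_EV libraries (2.10 ± 0.47, with the offsets 0.90 ± 0.44). Pcdhb19 had 5.01 and 5.37 CPM in DeltXp libraries, against 0.844, 0.759 and 0.78 CPM in WT_EV libraries (2.7 ± 0.45, with the offsets 0.69 ± 0.43). The remaining 3, Pcdhb15, Pcdhb18 and Pcdhb20, had log2 changes of 2.08, 2.73 and 3.11, and of 2.34, 1.01 and 2.24 with the offsets. All 9 beta genes were called higher without the offsets and 6 with them, the exceptions being Pcdhb17, Pcdhb18 and Pcdhb19. Over all genes tested, 32.2% were called higher and 40.1% lower without the offsets, and 25.5% higher and 24.9% lower with them, so a single call says little in this comparison. The summed level of 12 listed neural markers was also higher in DeltXp libraries (44.6 and 151 CPM) than in WT_EV libraries (22.3 to 24.1 CPM), with Stmn2, Snap25 and Rbfox3 at 0 in all 7 libraries, and its part in the result was not tested. No beta gene was called lower by edgeR under either fit, at an adjusted or an unadjusted p under 0.05, nor by DESeq2.

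The gamma genes did not move as 1 group in DeltXp against WT_EV. Of the 22, 2 were called higher and 10 lower, where 32.2% and 40.1% of all genes were. The median log2 change over the 22 was -1.13 without the offsets and 0.52 with them, and 13 of the 22 changes were positive with the offsets. Pcdhgc3, a C-type gene, had the highest gamma level averaged over the groups, though in DeltXp Pcdhga10 was level with it. Pcdhgc3 had 8.13 and 9.77 CPM in DeltXp libraries, against 29.5, 32.8 and 26.5 CPM in WT_EV libraries. Its log2 change was -1.72 ± 0.29, and 0.54 ± 0.24 with the offsets, so its direction rests on the treatment of GC content. The lower calls of the 9 other genes were lost as well: with the offsets 0 gamma genes were called lower by edgeR, 1 had an unadjusted p under 0.05 in that direction, and DESeq2 without offsets called 6 lower. The 10 lower calls also rested on single libraries, with 3 genes called lower without DeltXp replicate 1, 6 without DeltXp replicate 2 and 5 without WT_EV replicate 2.

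C-type genes Pcdhgc4 and Pcdhgc5, the last of the cluster, had the same order of groups as Pcdhgc3. Pcdhgc4 had 0.511 and 1.74 CPM in DeltXp libraries, against 3.21, 3.50 and 2.04 CPM in WT_EV libraries (log2 change -1.36 ± 0.69, with the offsets 0.49 ± 0.60). Pcdhgc5 had 0.102 and 0.618 CPM in DeltXp libraries, against 2.25, 2.57 and 0.60 CPM in WT_EV libraries, which overlap (-2.27 ± 0.93, with the offsets -0.54 ± 0.83). The lowest log2 changes were those of 3 A-type genes at low levels, Pcdhga11, Pcdhga8 and Pcdhga3. Pcdhga11 had 0 and 0.232 CPM in DeltXp libraries, against 0.619, 1.01 and 1.02 CPM in WT_EV libraries (-2.76 ± 0.94). Pcdhga8 had 0.153 and 0.154 CPM in DeltXp libraries, against 0.732, 1.39 and 1.08 CPM in WT_EV libraries (-2.76 ± 0.68). Pcdhga3 had 0.205 and 0.541 CPM in DeltXp libraries, against 2.31, 2.32 and 1.80 CPM in WT_EV libraries (-2.48 ± 0.76). With the offsets these 3 had log2 changes of -1.51, -1.66 and -1.22, none of them called.

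A few gamma genes were higher in DeltXp. Pcdhga10 had 6.54 and 11.4 CPM in DeltXp libraries, against 2.7, 4.35 and 5.10 CPM in WT_EV libraries, with log2 changes of 1.14 ± 0.45 and, with the offsets, 2.66 ± 0.43. Pcdhga1, the first gamma gene, had 0.767 and 1.35 CPM in DeltXp libraries, against 0.281, 0.0422 and 0.30 CPM in WT_EV libraries (2.39 ± 0.84, with the offsets 3.26 ± 0.81). Both were called higher under both fits. Their libraries did not overlap, and the share of all genes without overlap was not counted. Pcdhgb1 had 3.68 and 3.86 CPM in DeltXp libraries, against 2.08, 2.28 and 1.5 CPM in WT_EV libraries (0.94 ± 0.46, with the offsets 2.47 ± 0.42), and was called only with the offsets. Pcdhga2 had 5.42 and 8.07 CPM in DeltXp libraries, against 10.97, 9.999 and 6.12 CPM in WT_EV libraries, and the groups overlapped (-0.42 ± 0.46, with the offsets 1.26 ± 0.42). Pcdhgb6 overlapped too, with 2.35 and 4.83 CPM in DeltXp libraries, against 2.25, 3.75 and 3.12 CPM in WT_EV libraries (0.24 ± 0.54, with the offsets 2.05 ± 0.49). With the offsets 8 gamma genes were called higher, where 25.5% of all genes were, 3 of the 12 A-type and 5 of the 7 B-type genes, and none of the 3 C-type genes, 1 of which had an unadjusted p under 0.05 as higher. The calls of Pcdhga1 and Pcdhga10 without the offsets were both lost when DeltXp replicate 2 or WT_EV replicate 2 was left out, and that of Pcdhga10 also without WT_EV replicate 1.

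**Figure D4:**
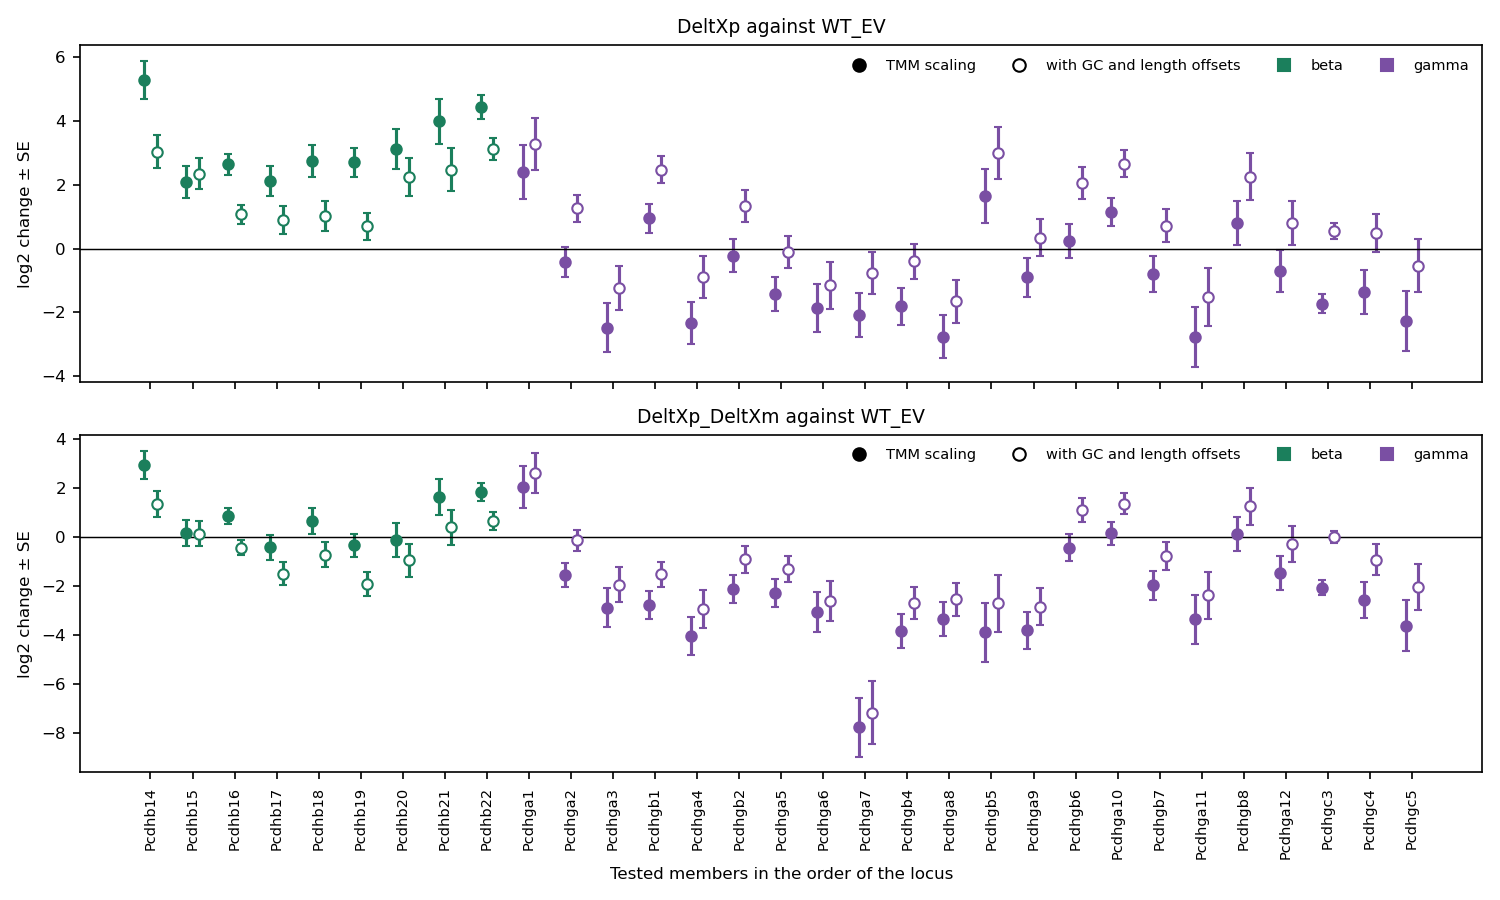
Log2 change ± SE of the 31 tested genes in the order of the locus, in DeltXp against WT_EV (top) and DeltXp_DeltXm against WT_EV (bottom); filled points use TMM scaling and open points add GC and length offsets. In the upper panel all 9 beta genes lie above 0 under both fits, and the gamma genes move up by the offsets, Pcdhgc3 across 0.

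In DeltXp_DeltXm against WT_EV, which uses the same WT_EV libraries, beta genes differed less and most gamma genes were lower. Of the 9 tested beta genes 3 were called higher, against 30.9% of all genes, and none lower, also at an unadjusted p under 0.05 and by DESeq2. Pcdhb14 had 2.7 and 1.96 CPM in DeltXp_DeltXm libraries, against its WT_EV levels of 0.113 to 0.54 CPM (log2 change 2.95 ± 0.58, with the offsets 1.34 ± 0.53). Pcdhb22 had 5.93 and 3.38 CPM in DeltXp_DeltXm libraries, against 1.08 to 1.43 CPM in WT_EV libraries (1.82 ± 0.36, with the offsets 0.66 ± 0.35). Pcdhb16 had 5.81 and 6.32 CPM in DeltXp_DeltXm libraries, against 2.7 to 3.97 CPM in WT_EV libraries (0.87 ± 0.32, with the offsets -0.43 ± 0.30). With the offsets none of the 9 was called higher and 2, Pcdhb17 and Pcdhb19, were called lower, where 22.6% of all genes were called higher and 20.4% lower. With the offsets 1 beta gene had an unadjusted p under 0.05 as higher, and 4 of the 9 log2 changes were positive and 5 negative. The sign of Pcdhb16 turned with the offsets, and its call was lost when any 1 of the 5 libraries compared was left out.

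Of the 22 gamma genes 17 were called lower in DeltXp_DeltXm against WT_EV, where 36.0% of all genes were, with a median log2 change of -2.67, and of -1.42 with the offsets. None was called higher, 1 had an unadjusted p under 0.05 in that direction, and DESeq2 called none higher. Pcdhga7 had 0 and 0 CPM in DeltXp_DeltXm libraries, against 0.844, 1.86 and 0.96 CPM in WT_EV libraries, at least 21.3-fold lower when the counts are pooled over each group, 75 of them in WT_EV, with 3 counts over the group as the floor. Pcdhga4 had 0.0829 and 0.0786 CPM in DeltXp_DeltXm libraries, against 1.07, 1.81 and 1.32 CPM in WT_EV libraries (log2 change -4.03 ± 0.77, with the offsets -2.94 ± 0.77). Pcdhgb5 had 0.0829 and 0.0393 CPM in DeltXp_DeltXm libraries, against 0.563, 1.31 and 1.02 CPM in WT_EV libraries (-3.88 ± 1.20, with the offsets -2.7 ± 1.17). The median over the gamma genes was the same with Pcdhga7 set at its bound. Without DeltXp_DeltXm replicate 2 the number of gamma genes called lower was 10.

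With the offsets 7 gamma genes were called lower and 2 higher in DeltXp_DeltXm against WT_EV, where 20.4% and 22.6% of all genes were. The 7 included Pcdhga4, Pcdhga7 and Pcdhgb1, and the 2 were Pcdhga1 and Pcdhga10. Pcdhga1 had 1.33 and 0.354 CPM in DeltXp_DeltXm libraries, against 0.281, 0.0422 and 0.30 CPM in WT_EV libraries (log2 change 2.05 ± 0.84, with the offsets 2.61 ± 0.81). Pcdhgc3 had 7.46 and 6.72 CPM in DeltXp_DeltXm libraries, against 26.5 to 32.8 CPM in WT_EV libraries. Its log2 change was -2.06 ± 0.30, and -0.00 ± 0.24 with the offsets. In the same comparison the other C-type genes also had lower levels, with Pcdhgc4 at 0.746 and 0.236 CPM and Pcdhgc5 at 0.249 and 0.0393 CPM in DeltXp_DeltXm libraries, and neither was called with the offsets.

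DeltXp_DeltXm against DeltXp is the comparison least touched by the GC trend, and in it all 31 tested genes had a negative log2 change, with and without the offsets. The median over the 31 was -1.70, where the median of all tested genes was 0.02 and 47.5% of them were negative. It was the same with Pcdhga7 set at its bound. Over the 9 beta genes the median was -2.36 and the range -3.23 to -1.76. The DeltXp_DeltXm libraries lay below both DeltXp libraries for all 9 beta genes and for 15 of the 22 gamma genes. With so few libraries in each group this order says little alone, and its share over all genes was not counted. Few genes of any kind were called here. edgeR called 0.28% of all tested genes higher and 0.163% lower, and 3 of the 31 lower, Pcdhb19, Pcdhb22 and Pcdhgb1. With the offsets 0.137% of all genes were called higher and 0.098% lower, and Pcdhb22 and Pcdhgb1 remained.

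Pcdhb22 had 5.93 and 3.38 CPM in DeltXp_DeltXm libraries, against 26.2 and 30.6 CPM in DeltXp libraries, a log2 change of -2.61 ± 0.40 (95% interval -3.51 to -1.71). Pcdhb19 had 0.622 and 0.628 CPM in DeltXp_DeltXm libraries, against 5.01 and 5.37 CPM in DeltXp libraries (-3.04 ± 0.53, interval -4.22 to -1.87). Pcdhgb1 had 0.249 and 0.314 CPM in DeltXp_DeltXm libraries, against 3.68 and 3.86 CPM in DeltXp libraries (-3.72 ± 0.59, interval -5.02 to -2.41). In each of the 3 both DeltXp_DeltXm libraries lay below both DeltXp libraries, and the 2 DeltXp_DeltXm libraries of Pcdhb22 also differed from each other beyond counting error. Their calls were lost when any 1 of the 4 deletion libraries was left out and when only these 4 libraries entered the fit.

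The other beta genes had intervals below 0 without being called. Pcdhb14 had 2.7 and 1.96 CPM in DeltXp_DeltXm libraries, against 14 and 9.54 CPM in DeltXp libraries (log2 change -2.33 ± 0.58). Pcdhb16 had 5.81 and 6.32 CPM in DeltXp_DeltXm libraries, against 20.8 and 20.4 CPM in DeltXp libraries (-1.76 ± 0.36). Pcdhb17 had 0.829 and 1.37 CPM in DeltXp_DeltXm libraries, against 7.36 and 5.44 CPM in DeltXp libraries (-2.53 ± 0.55). Pcdhb21 had 0.912 and 0.314 CPM in DeltXp_DeltXm libraries, against 2.76 and 3.55 CPM in DeltXp libraries (-2.36 ± 0.72). All 9 beta genes had an unadjusted p under 0.05 with edgeR. Of the 90 tested genes of the 11 other lists described below, 13 had one as lower and 11 as higher. The share of all genes at that unadjusted threshold was not counted. DESeq2, which estimates the spread in another way, called all 9 beta genes lower, and 4 gamma genes with them. It called 4.1% of all genes lower and 3.73% higher. No member was called higher by edgeR or DESeq2, and none had an unadjusted p under 0.05 in that direction.

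**Figure D5:**
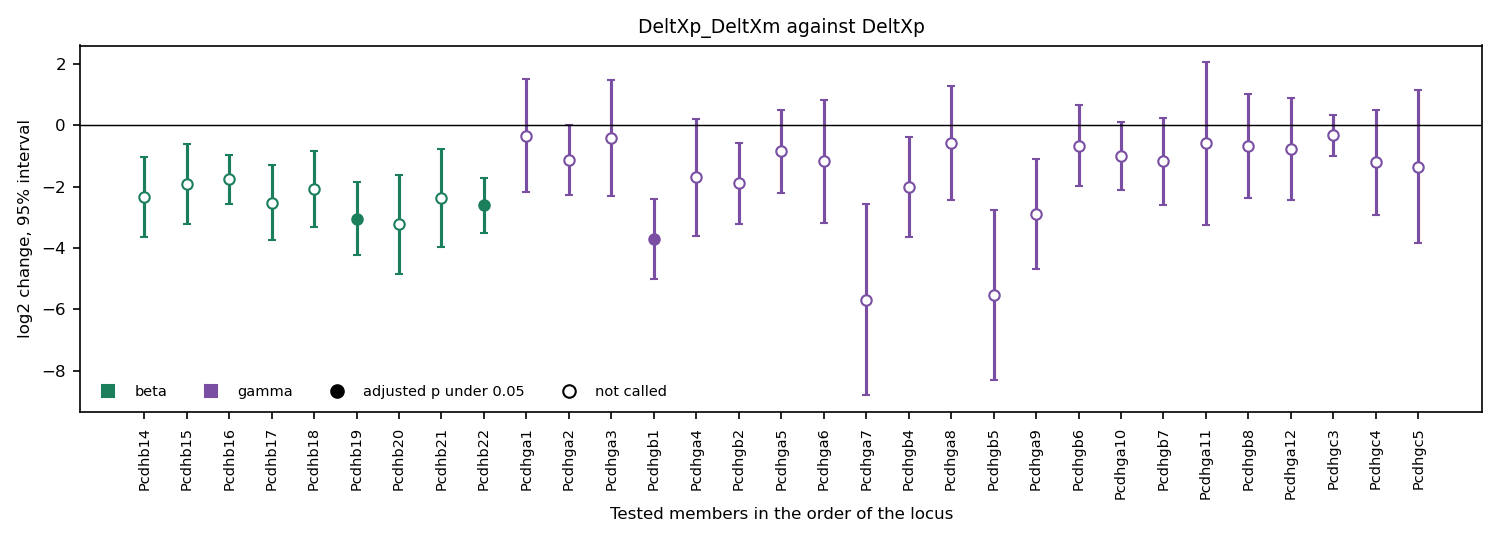
Log2 change with its 95% interval for the 31 tested genes in DeltXp_DeltXm against DeltXp, in the order of the locus; filled points had an adjusted p under 0.05. All points lie below 0; the intervals of all 9 beta genes exclude 0, and those of 16 of the 22 gamma genes include it.

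Gamma genes spread more widely between the deletions. The gamma median was -1.16. Pcdhga7 was at 0 in both DeltXp_DeltXm libraries, against 0.307 and 0.27 CPM in DeltXp libraries, at least 4.73-fold lower with the counts pooled and the same floor. Pcdhgb5 had 0.0829 and 0.0393 CPM in DeltXp_DeltXm libraries, against 0.46 and 5.60 CPM in DeltXp libraries, with a log2 change of -5.52 ± 1.25 that was -2.81 without DeltXp replicate 2. Pcdhga10 had 5.68 and 3.30 CPM in DeltXp_DeltXm libraries, against 6.54 and 11.4 CPM in DeltXp libraries (-1.0 ± 0.5). Pcdhga2 had 1.87 and 4.28 CPM in DeltXp_DeltXm libraries, against 5.42 and 8.07 CPM in DeltXp libraries (-1.13 ± 0.51). Pcdhgb6 had 3.15 and 1.37 CPM in DeltXp_DeltXm libraries, against 2.35 and 4.83 CPM in DeltXp libraries, which overlap (-0.67 ± 0.59). Pcdhgc3 differed least, with 7.46 and 6.72 CPM in DeltXp_DeltXm libraries, against 8.13 and 9.77 CPM in DeltXp libraries (-0.34 ± 0.30, interval -1.01 to 0.34). An interval that includes 0 does not show that the levels were alike.

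Single genes differed between replicates of 1 genotype. In DeltXp, Pcdhgb5 had 145 counts in replicate 2 and 9 in replicate 1, a ratio of 12.2 after scaling (95% interval 6.23 to 27.1, counting error only). Pcdhgc4 had 45 and 10 counts in the same 2 libraries, a ratio of 3.40 (1.69 to 7.56). Of 30 genes with a ratio in DeltXp, 10 had an interval that excluded 1, and the median ratio was 1.06. In DeltXp_DeltXm, 9 of 30 did. The share of all genes with such an interval was not counted, so these counts show no trait particular to the family. In DeltXp_DeltXm, Pcdhga2 had 109 counts in replicate 2 and 45 in replicate 1, a ratio of 2.30 (1.61 to 3.32). Pcdhga1 had 9 and 32 counts there, a ratio of 0.266 (0.112 to 0.571). For Pcdhb22 replicate 2 over replicate 1 was a ratio of 0.570 (0.431 to 0.750) in DeltXp_DeltXm and 1.17 (1.05 to 1.31) in DeltXp.

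Per kilobase of exon not shared with another gene on the strand, the order of the genes differed between the groups. In DeltXp cells the highest levels were 4.61 ± 0.51 CPM per kb for Pcdhb22 and 3.95 ± 0.05 for Pcdhb16 (SD, n = 2), followed by Pcdhga10 at 3.42 ± 1.30, Pcdhgc3 at 2.65 ± 0.34 and Pcdhga2 at 2.62 ± 0.73. The last 3 overlap in their spread, and Pcdhga10 also overlaps with Pcdhb16 and with Pcdhb22. In DeltXp_DeltXm cells Pcdhgc3 led with 2.10 ± 0.16 CPM per kb, ahead of Pcdhga10 at 1.72 ± 0.64, Pcdhga2 at 1.20 ± 0.66 and Pcdhb16 at 1.16 ± 0.07 (SD, n = 2), and each of these overlapped in spread with the next. In WT_EV cells Pcdhgc3 led with 8.75 ± 0.94 CPM per kb, followed by Pcdhga2 at 3.51 ± 1.0 and Pcdhga10 at 1.55 ± 0.47 (SD, n = 3), and no beta gene was among the first 9. Pcdhgc3 alone took 19.6% ± 2.9 of the gamma counts in DeltXp and 31.5% ± 1.7 in DeltXp_DeltXm cells, against 41.0% ± 2.3 in WT_EV cells. These levels and shares carry no offsets, and Pcdhgc3 has the highest GC content of the gamma genes (55.4%). With the offsets its log2 change in DeltXp against WT_EV was 0.54, where the gamma median was 0.52. In DeltXp_DeltXm against WT_EV it was -0.00, where the gamma median was -1.42. A lower share of Pcdhgc3 in the deletion cells is thus not seen with the offsets.

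The genes around and between the clusters did not share one pattern. Of 16 listed neighbours 14 were tested, and 2 were called higher and 7 lower in DeltXp against WT_EV, 2 higher and 3 lower with the offsets. The shares over all genes, which also apply to the lists that follow, were 32.2% higher and 40.1% lower, and 25.5% higher and 24.9% lower with the offsets. Taf7, a subunit of the general transcription factor TFIID that lies between the beta and gamma clusters, had 223 ± 98 CPM in DeltXp, 156 ± 82 CPM in DeltXp_DeltXm and 43.1 ± 12.0 CPM in WT_EV cells (SD, n = 2, 2 and 3). Its log2 change in DeltXp_DeltXm against DeltXp was -0.52 ± 0.43, smaller than that of any of the 9 beta genes. Of the 28 other genes that the annotation places within the locus, 16 had 0 counts in all 7 libraries.

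The list of known silencers of the clusters also holds Tet1, Tet2 and Tet3, which act to remove DNA methylation. All 17 genes of this mixed list were tested, and the called ones went both ways. In DeltXp against WT_EV 6 were called higher and 8 lower, near the shares of 32.2% and 40.1% over all genes, and 3 higher and 6 lower with the offsets, where 25.5% and 24.9% of all genes were. The 3 with the lowest p were all called lower under both fits. Ehmt2, a histone H3 lysine methyltransferase, had 5.74 ± 0.85 CPM in DeltXp, 10.5 ± 0.15 CPM in DeltXp_DeltXm and 195 ± 58 CPM in WT_EV cells (SD, n = 2, 2 and 3), with a log2 change in DeltXp against WT_EV of -5.09 ± 0.36 and, with the offsets, -1.62 ± 0.26. Trim28, a corepressor that recruits such enzymes, had 17.7 ± 2.0 CPM in DeltXp, 29.6 ± 6.9 CPM in DeltXp_DeltXm and 472 ± 134 CPM in WT_EV cells (-4.73 ± 0.36, with the offsets -1.21 ± 0.24). Dnmt1, which maintains DNA methylation through cell division, had 49.3 ± 7.7 CPM in DeltXp, 73.6 ± 4.7 CPM in DeltXp_DeltXm and 400.4 ± 33.9 CPM in WT_EV cells (-3.02 ± 0.25, with the offsets -1.37 ± 0.24). Dnmt3a, Dnmt3b and Smchd1 were chosen for their role, after their values were seen. Dnmt3a, a DNA methyltransferase that sets new methylation, had 97.5 ± 24.7 CPM in DeltXp, 27.4 ± 15 CPM in DeltXp_DeltXm and 25.9 ± 7.0 CPM in WT_EV cells (SD, n = 2, 2 and 3). Its log2 change in DeltXp against WT_EV was 1.91 ± 0.37 (edgeR adjusted p = 0.000985) and 2.57 ± 0.35 with the offsets, and in DeltXp_DeltXm against DeltXp it was -1.83 ± 0.42 (adjusted p = 0.0653). Dnmt3b, the other such enzyme, had 29.2 ± 8.4 CPM in DeltXp, 79.7 ± 39.6 CPM in DeltXp_DeltXm and 470 ± 243 CPM in WT_EV cells. Its log2 change of -4.01 ± 0.61 in DeltXp against WT_EV, -2.46 ± 0.48 with the offsets, was called under both fits (edgeR adjusted p = 0.000317, with the offsets 0.00312). Smchd1 had 750 ± 59 CPM in DeltXp, 541 ± 100 CPM in DeltXp_DeltXm and 138 ± 12 CPM in WT_EV cells, with a log2 change of 2.45 ± 0.22 in DeltXp against WT_EV that was 0.39 and no longer called with the offsets.

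All 11 listed CTCF and cohesin genes were tested, 8 called higher and 1 lower in DeltXp against WT_EV, and 5 higher and 2 lower with the offsets, where 32.2%, 40.1%, 25.5% and 24.9% of all genes were. The 3 with the lowest p were called higher under both fits: Wapl, which releases cohesin from DNA, had a log2 change of 2.74 ± 0.24 and, with the offsets, 0.79 ± 0.19. Nipbl, the cohesin loader, had 2.88 ± 0.27 and, with the offsets, 0.92 ± 0.21, and Pds5b, a cohesin regulator, 2.82 ± 0.27 and 0.65 ± 0.21. Mau2 was called lower under both fits (-2.51 ± 0.49, with the offsets -1.81 ± 0.41). Smc1a was called lower only with the offsets (-0.16 ± 0.21, with the offsets -0.89 ± 0.20). Ctcf, named for its role after its values were seen, had 122 ± 2.1 CPM in DeltXp, 162 ± 17 CPM in DeltXp_DeltXm and 99.4 ± 9.3 CPM in WT_EV cells (SD, n = 2, 2 and 3), and was not called in DeltXp against WT_EV. In DeltXp_DeltXm against WT_EV it was called higher (log2 change 0.71 ± 0.21, edgeR adjusted p = 0.0139), and not with the offsets (-0.08 ± 0.19). Of the 12 listed protocadherins outside the clusters only 2 passed the filter, and Pcdh19, on the X chromosome, had 28.9 ± 11.2 CPM in DeltXp, 24.1 ± 7.9 CPM in DeltXp_DeltXm and 11.5 ± 1.7 CPM in WT_EV cells. Its log2 change in DeltXp against WT_EV was 1.33 ± 0.34, called higher, and 0.57 ± 0.29 with the offsets, not called. The other, Pcdh1, had -0.90 ± 0.54, not called, and 2.29 ± 0.45 with the offsets, called higher. Of 9 classical cadherins 4 were tested, and Cdh6 was called higher in DeltXp against WT_EV without the offsets (log2 change 2.43 ± 0.32) and not with them. Of 17 tested genes for cytoplasmic partners, such as the kinases and the WAVE complex that bind protocadherin tails, 8 were called higher and 5 lower in DeltXp against WT_EV, and 9 higher and 1 lower with the offsets, against the same shares of all genes. Between the deletions, 0 of the 90 tested genes of all 11 lists were called by edgeR in DeltXp_DeltXm against DeltXp, while 11 had an unadjusted p under 0.05 as higher and 13 as lower, and DESeq2 called 1 higher and 4 lower.

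Neural markers, which mark the cells that use these clusters most, were uneven. Of 12 listed, 3 were tested and Stmn2, Snap25 and Rbfox3 were at 0 in all 7 libraries. Their summed level was 44.6 and 151 CPM in DeltXp libraries, 82.6 and 21.6 CPM in DeltXp_DeltXm libraries, and 24.1, 22.4 and 22.3 CPM in WT_EV libraries. Both DeltXp libraries lay above all WT_EV libraries, and the DeltXp_DeltXm libraries lay on either side of them. In DeltXp against WT_EV, Elavl4, an RNA-binding protein of neurons, and Nes, an intermediate filament protein of neural progenitors, were called higher under both fits, with log2 changes of 4.17 ± 0.52 and 1.77 ± 0.69, and of 2.25 ± 0.54 and 3.87 ± 0.72 with the offsets. Tubb3, a neuronal tubulin, was called lower without the offsets (-3.68 ± 0.83) and not with them (0.02 ± 0.68). In DeltXp_DeltXm against DeltXp none of the 3 was called by edgeR, and Elavl4 had a log2 change of -3.02 ± 0.58. The part of these genes in the results on the beta genes was not tested. The 9 listed pluripotency and trophoblast markers summed to between 0.96 and 4.47 CPM in all 7 libraries, and 3 were tested. In each deletion against WT_EV 2 of the 3 were called lower and 0 higher. With the offsets 1 was called lower and 1 higher. Of all genes, 40.1% were called lower in DeltXp and 36.0% in DeltXp_DeltXm, and 24.9% and 20.4% with the offsets. Called higher with the offsets were 25.5% and 22.6%.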

How the data were processed

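Total RNA of XEN cells was extracted with Trizol and made into libraries with a stranded kit, per the labels' protocols, which name 2 makes of kit without saying which served which library. Per the submitters' processing notes, FastQC, STAR 2.7.9a, featureCounts 2.0.1 and the builds GRCm38 and mm10 were used. The authors deposited raw read counts per gene, 1 table for 7 libraries and another for the 2 WT_clone libraries, which is held here in part (11513 genes, 0 of the 58). The strand setting and annotation release are not stated. Gene IDs were matched to GENCODE M21 for symbols and GC content, while gene length and exons are those deposited with the counts. Of 55401 IDs, 55141 had a symbol and 54784 the same coordinates.

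Counts of the 7 libraries were filtered with filterByExpr by group, scaled by TMM and fitted with edgeR 4.0.16 (R 4.3.3, quasi-likelihood, robust) with group as the only term, which gives all 3 groups 1 estimate of the spread (biological coefficient of variation 33.7%). Benjamini-Hochberg adjustment ran over all 15331 genes tested, 15311 with GC and length offsets. The offsets came from splines with 5 degrees of freedom each on GC content of the longest transcript and log of the deposited gene length. They were fitted per library to the deviation of log2 CPM, with a small number added to each count, from the gene's mean. SE were taken from the F statistic and intervals are 95% intervals. Alternatives were DESeq2 1.42.0, other size factors, no filter, a replicate block, the 2 groups alone, and leaving out each library. The scripts were tested on simulated data. Figures were drawn with matplotlib 3.10.9.

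The members and gene lists were chosen with earlier results of these data known. Members named with all values are the 5 highest of each cluster, every C-type gene, and the 3 largest changes in each direction of each comparison. Of the other lists, up to 3 genes with the lowest p were to be named. Taf7, Ctcf, Smchd1, Dnmt3a and Dnmt3b and markers at 0 were named for their role, after their values were seen. Mau2 and Smc1a were named as genes called lower, also after their values were seen. The rule also called for the genes most alike in pattern; these are not given, since the 7 libraries fall into separate groups. No sequence is printed.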

Additional observations from a re-analysis of the deposited data

Results flagged for a closer look

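DeltXp_DeltXm and DeltXp differed for 3 genes by the edgeR test between them (adjusted p under 0.05), which sets their contrasts with the same WT_EV libraries against each other; genotype and line cannot be told apart here. The log2 change between the deletions was -3.04 for Pcdhb19, -2.61 for Pcdhb22 and -3.72 for Pcdhgb1. For each of them both DeltXp_DeltXm libraries lay below both DeltXp libraries, and the share of all genes in that order was not counted. All 3 calls were lost when any 1 of these 4 libraries was left out, and when only the 4 entered the fit. Pcdhb19 had 15 and 16 counts in DeltXp_DeltXm, against 98 and 139 in DeltXp libraries. Pcdhgb1 had 6 and 8 counts in DeltXp_DeltXm, against 72 and 100 in DeltXp libraries. No group had 4 or more libraries, so no library was tested as standing apart from its group.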

How the results depend on the processing

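In the comparisons with WT_EV the treatment of GC content changed directions. With GC and length offsets 0 members were called lower in DeltXp against WT_EV (10 without) and 9 in DeltXp_DeltXm against WT_EV (17 without), and 6585 of all genes were called there (10243 without) and 36 in DeltXp_DeltXm against DeltXp (68 without). Pcdhgc3 turned to 0.54 in DeltXp against WT_EV and Pcdhb16 to -0.43 in DeltXp_DeltXm against WT_EV. An alternative was added after seeing the data. For alpha and gamma genes it took GC content from the first exon, and length from the exon bases not shared on the strand. It gave the same counts of members called lower, 0 and 9, with 6584 and 39 of all genes called, and turned Pcdhgc3 to 1.36 and 0.77 in the 2 comparisons with WT_EV, Pcdhb16 to -0.44 and Pcdhga2 to 0.11 in DeltXp_DeltXm against WT_EV. In DeltXp against WT_EV the direction of the gamma genes therefore depends on how GC content is treated. There 16 of the 22 log2 changes were negative without the offsets and 9 with them. In DeltXp_DeltXm against WT_EV most gamma changes kept their sign, with 19 negative without the offsets and 18 with them.

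DESeq2 called 6 members lower in DeltXp against WT_EV, and 10903 of all genes in either direction. In DeltXp_DeltXm against DeltXp it called 13 members lower, and 1053 of all genes in either direction. Without a filter on low counts 10 members and 1436 genes were called in the last comparison, and with only its 4 libraries in the fit 0 members and 10 genes. The cause of these differences was not tested. Leaving out 1 library at a time, members called lower ranged from 3 to 9 in DeltXp against WT_EV and from 10 to 17 in DeltXp_DeltXm against WT_EV. In DeltXp_DeltXm against DeltXp it left 0 members in each case, with between 2 and 144 of all genes called; the 1 library left in a group is then taken to vary like the other groups. The summed beta log2 ratio was 2.74, 0.63 and -2.11 with plain library totals (DeltXp over WT_EV, DeltXp_DeltXm over WT_EV, DeltXp_DeltXm over DeltXp) and 2.88 without Pcdhb22 in the first; leaving out 1 library it ran from -2.44 to -2.13 in the last. The summed gamma log2 ratio was -1.11 and -2.01 over WT_EV with plain totals, -0.18 and -1.46 without Pcdhgc3, and ran from -0.95 to -0.38 in DeltXp over WT_EV. With 1 alpha count in all, no alpha ratio could be given.

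Replicates are numbered by the "rep" number of the titles. By that number, same-numbered DeltXp and DeltXp_DeltXm libraries deviated in opposite ways from their group means (correlation -0.20 across genes), and with WT_EV the correlations were between -0.05 and 0.06, so the numbers were not taken to pair libraries. The titles of the 2 DeltXp libraries carry another number, which disagrees. By it, same-numbered DeltXp and DeltXp_DeltXm libraries correlated at 0.20. With 2 libraries in each of these groups the deviations mirror each other, so this value is the first with its sign turned. It is no second observation, and nothing in the labels says that either number marks a shared batch or day. With a replicate block 12 members were called higher and 8 lower in DeltXp against WT_EV, where 10638 of all genes were called in either direction. In DeltXp_DeltXm against WT_EV 2 members were called higher and 17 lower, and 9668 of all genes in either direction. In DeltXp_DeltXm against DeltXp 0 members were called higher and 2 lower, and 92 of all genes in either direction. With the block set by that other number, which crosses the "rep" numbers and was added after seeing the data, 11 members were called lower in the last comparison and 1573 of all genes, against 3 and 68 without a block. Single members called with 0 to 9 counts in a library are limited by depth.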

Other observations

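Genes at the start of the gamma cluster had unlike patterns. Pcdhga1, the gamma gene nearest to the beta cluster, had 15 and 35 counts in DeltXp, 32 and 9 in DeltXp_DeltXm and 5, 1 and 5 in WT_EV libraries. Pcdhga3, a close neighbour in the same cluster, had 4 and 14 counts in DeltXp, 12 and 2 in DeltXp_DeltXm and 41, 55 and 30 in WT_EV libraries. The lncRNA gene 3222401L13Rik, which ends just before Pcdhga1 on the same strand, had 142 and 198 counts in DeltXp, 157 and 60 in DeltXp_DeltXm and 40, 32 and 22 in WT_EV libraries. The 3 were chosen after their values were seen, and the genes were not tested against each other.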
